A study of Rattus norvegicus with 16 samples.

Results

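Secreted frizzled-related proteins carry the same cysteine-rich fold with which frizzled receptors bind Wnt ligands, but they lack a membrane anchor. They are released from cells and can hold Wnt ligands away from the receptor. Wnt ligands act through frizzled receptors and the co-receptors Lrp5 and Lrp6 to stabilise beta-catenin, and through other receptors to act on the cytoskeleton. In skeletal muscle, Wnt signals are known to take part in myogenesis, regeneration and clustering of acetylcholine receptors at the nerve terminal. The 4 genes described here are Frzb (also called Sfrp3), first known from cartilage, and Sfrp1, Sfrp2 and Sfrp4, its secreted relatives. They were taken as the 9 probe sets that the array annotation names for these symbols, out of 31099 probe sets and 14217 named genes. Frzb was picked from the comparisons of the extraocular with the limb muscle on these same arrays, so its muscle differences are given as a description, with no test. Sfrp1, Sfrp2 and Sfrp4 stand beside it as relatives and are treated in the same way. Only junction against fibre within a muscle, and the difference of these differences, were tested for the 4 genes.

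Messenger RNA was measured on 16 Affymetrix arrays, with 4 arrays in each of 4 groups. The sample titles carry the numbers 15, 25, 27 and 29, read here as 4 rats, though no label says so outright. EOM_synapse holds neuromuscular junctions and EOM_fiber holds non-synaptic regions of the recti, the extraocular muscles (EOM) that turn the eyeball. TA_synapse and TA_fiber hold the same regions of tibialis anterior (TA), the shin muscle that lifts the foot. All regions were laser-captured from frozen sections stained for acetylcholinesterase, and each array pools many captured pieces of 1 muscle of 1 rat. The rats carried no stated treatment or genetic change, and their strain, sex and age are not given in the sources used here. A captured region can hold fibre, nerve terminal, Schwann cells and connective tissue together, and fewer cells of a type and less RNA per cell cannot be told apart in it.

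The median deposited intensity of an array ran from 33.4 to 57.0, and arrays of a group correlated at 0.867 to 0.949 across probe sets before normalization. The labels were checked against marker genes. Counts of higher and lower genes are of those past the limma threshold given below. Of 11 tested genes of the junction list, 9 were called higher at the junction in EOM and 9 in TA, and 0 were called lower. Over all genes 10.1% were called at the EOM junction and 10.2% at the TA junction. Between the fibres 6 of the 11 were higher in EOM and 0 lower, where 15.6% of all genes were called. For 2 of the 11 the junction difference was called lower in EOM than in TA. The summed intensity of that list was 13378 to 14075 in EOM_synapse, 1586 to 2275 in EOM_fiber, 9606 to 13383 in TA_synapse and 448 to 839 in TA_fiber. The summed intensity of 10 muscle fibre genes was 104824 to 140653 in EOM_synapse, 184710 to 264178 in EOM_fiber, 168988 to 261743 in TA_synapse and 213148 to 394972 in TA_fiber. Levels below are log2(intensity + 16) after quantile normalization, on which the median probe set of every array lies at 5.88. For a dim gene this scale shows less than the true change, and the number of arrays limits the precision. A difference passed the test where the limma adjusted p over all 10416 genes tested was under 0.05. Of the 9 probe sets, 5 passed the filter on low values (above the array median in at least 4 arrays), and each of the 4 genes had at least 1 that did.

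The promoters of Frzb and of Sfrp5, the family gene that differed most at the junction, are shown because both transcripts were higher at TA junctions. Both come from RefSeq (build GRCr8, 250 bases before to 50 after the annotated start, minus strand), Frzb at chr3:85772047-85772346 and Sfrp5 at chr1:250960463-250960762. Capitals mark the E-box letters CANNTG, the core bound by myogenic helix-loop-helix factors, and CTTTG or its complement CAAAG, the core bound by TCF/LEF factors at the end of the beta-catenin pathway.
Frzb: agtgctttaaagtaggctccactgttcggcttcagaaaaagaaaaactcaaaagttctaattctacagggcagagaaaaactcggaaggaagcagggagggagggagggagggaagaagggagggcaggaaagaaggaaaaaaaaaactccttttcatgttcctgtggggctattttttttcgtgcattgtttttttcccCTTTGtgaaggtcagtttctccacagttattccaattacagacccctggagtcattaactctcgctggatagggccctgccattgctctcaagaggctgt
Sfrp5: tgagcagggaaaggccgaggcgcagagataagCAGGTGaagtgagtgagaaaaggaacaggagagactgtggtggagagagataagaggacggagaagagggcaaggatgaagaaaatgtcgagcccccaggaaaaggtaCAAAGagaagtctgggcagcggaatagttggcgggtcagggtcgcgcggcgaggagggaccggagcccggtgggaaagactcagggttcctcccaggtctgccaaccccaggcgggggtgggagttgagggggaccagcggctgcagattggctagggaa
The Frzb window holds CTTTG once, at -50 from the start, and no CANNTG on either strand. The Sfrp5 window holds CANNTG once, at -218, and CAAAG once, at -110. Over all 33469 rat promoters of this length, 72.1% hold CANNTG and 53.8% hold CTTTG on either strand. The N-box CCGGAA, a motif known from genes active under the nerve terminal, is in neither window and in 15.0% of all promoters. A match of these letters is a description of the window and not a site. The Sfrp2 window, the other one matched, held none of these 3 motifs.

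Frzb was bright on all 8 EOM arrays and dim on all 8 TA arrays. The deposited intensity of its brighter probe set, 1375961_at, was 11765, 16504, 10638 and 10386 in EOM_synapse of rats 15, 25, 27 and 29. In EOM_fiber of the same rats it was 19860, 13958, 15122 and 11479. In TA_synapse it was 170, 92.9, 302 and 53.8, against 29.8, 32.6, 65.4 and 31.4 in TA_fiber. The lowest EOM array was thus far above the highest TA array, while the ranges of junction and fibre overlapped within each muscle. On the log2 scale the order was EOM_synapse (13.96 ± 0.28), EOM_fiber (13.81 ± 0.23), TA_synapse (7.23 ± 0.96) and TA_fiber (5.83 ± 0.49), each SD with n = 4. TA_fiber thus lay at about the level of the median probe set, and EOM arrays far over it.

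The second Frzb probe set, 1373615_at, gave the same order of groups. Its deposited intensity was 2072 to 3982 in EOM_synapse, 1485 to 3723 in EOM_fiber, 13.3 to 126 in TA_synapse and 2.27 to 11.2 in TA_fiber. Its log2 means were 11.72, 11.39, 6.17 and 4.48 in that order. Every TA_synapse intensity was above every TA_fiber intensity, while on the normalized log2 scale the array of rat 29 (4.88) fell below the highest TA_fiber array (4.94).

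**Figure D1:**
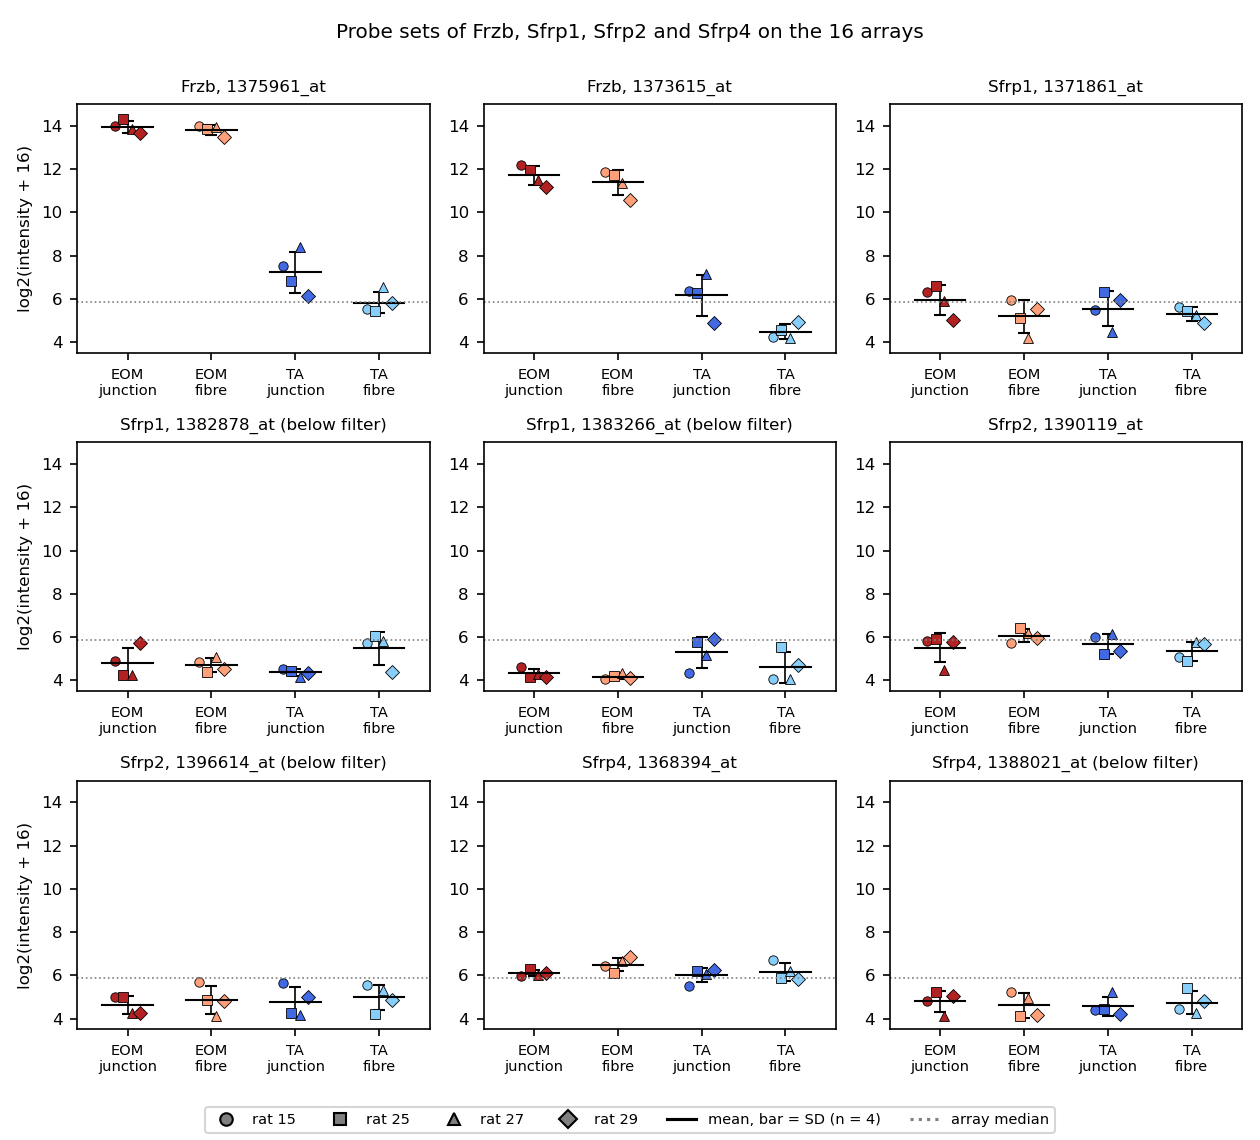
Level of every probe set of Frzb, Sfrp1, Sfrp2 and Sfrp4 on the 16 arrays, as quantile-normalized log2(intensity + 16), with 1 point per rat, group means and SD (n = 4), and the array median of 5.88 dotted. Both Frzb probe sets separate the EOM from the TA arrays, and the other 7 probe sets lie near or below the array median in every group.

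Between the muscles, Frzb in fibre was higher in EOM by 8.44, 8.41, 7.40 and 7.65 log2 units in rats 15, 25, 27 and 29. The mean difference of EOM_fiber over TA_fiber was 7.97 (SD of the rat differences 0.53), a fold of 252 on this scale. At the junction the rat differences were 6.48, 7.50, 5.46 and 7.53, with a mean of 6.74 (SD 0.98) for EOM_synapse over TA_synapse. In the order of all 10416 genes from the highest difference, Frzb was at place 3 in fibre and at place 2 at the junction. These comparisons picked the gene, so nothing is read from its place. For comparison, limma called 15.6% of all genes between the fibres and 16.4% between the junctions. The second probe set differed by 6.91 in fibre and 5.55 at the junction.

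Sfrp1, Sfrp2 and Sfrp4 showed no separation of the muscles of that kind. Sfrp1, a Wnt-binding antagonist, differed by -0.12 (SD of the rat differences 0.76) between EOM_fiber and TA_fiber and by 0.42 (SD 1.01) between EOM_synapse and TA_synapse. Sfrp2, known from fibroblasts and from regenerating muscle, differed by 0.72 (SD 0.56) in fibre, positive in 4 of 4 rats, and by -0.18 (SD 1.04) at the junction. Sfrp4, known from bone and fat, differed by 0.34 (SD 0.55) in fibre and 0.09 (SD 0.26) at the junction. On the normalized log2 scale the ranges of the EOM and TA arrays overlapped for all 3 genes in fibre and at the junction, in fibre for Sfrp2 only just (lowest EOM_fiber array 5.71, highest TA_fiber array 5.76), and as deposited its fibre intensities did not overlap.

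Within TA, Frzb was higher at the junction than in fibre away from it, and within EOM no difference passed the test. In TA the rats differed by 1.98, 1.40, 1.86 and 0.33, a mean of 1.39 ± 0.32 (SE, 95% interval 0.70 to 2.08) and a fold of 2.62, with a limma adjusted p of 0.0134. Rat 29 gave the smallest difference, and its TA_synapse array (6.15) lay below the TA_fiber array of rat 27 (6.53). Of the 4 genes, 1 passed in TA, where 10.2% of all genes tested did. In EOM the difference was 0.16 ± 0.32 (95% interval -0.53 to 0.85, limma adjusted p = 0.813), positive in 3 of 4 rats, and it was negative with the values as deposited (-0.29) and with arrays centred on a common median (-0.17). None of the 4 genes passed in EOM with limma, 0 of them had an unadjusted p under 0.05, and 10.1% of all genes passed. The TA call was lost without all arrays of rat 15 (1.20, adjusted p = 0.121) or of rat 25 (1.39, adjusted p = 0.0566), without TA_fiber of rat 15 alone (1.24, adjusted p = 0.0510) or TA_synapse of rat 15 alone (1.28, adjusted p = 0.0518), and in a fit of the 8 TA arrays alone (adjusted p = 0.0563). The TA_fiber arrays also entered the muscle comparison that picked Frzb.

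The second probe set of Frzb passed the filter only through its EOM arrays, so its TA values are a description with no test, with a mean difference of 1.69 (SD of the rat differences 1.27) at the TA junction, positive in 3 of 4 rats. In EOM it differed by 0.32 (95% interval -0.47 to 1.12, adjusted p = 0.662). For the brighter probe set the EOM difference minus the TA difference was -1.24 ± 0.45 (SE, 95% interval -2.21 to -0.26), negative in 4 of 4 rats. Its unadjusted p of 0.0170 became an adjusted p of 0.303, so a dependence of the junction difference on the muscle did not pass the test. The same contrast is the muscle difference at the junction minus that in fibre. Those comparisons picked Frzb, so the p of this contrast is not free of that choice. Over all genes 0.922% passed for this contrast, and of the 4 genes 0 passed and 1, Frzb, had an unadjusted p under 0.05.

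**Figure D2:**
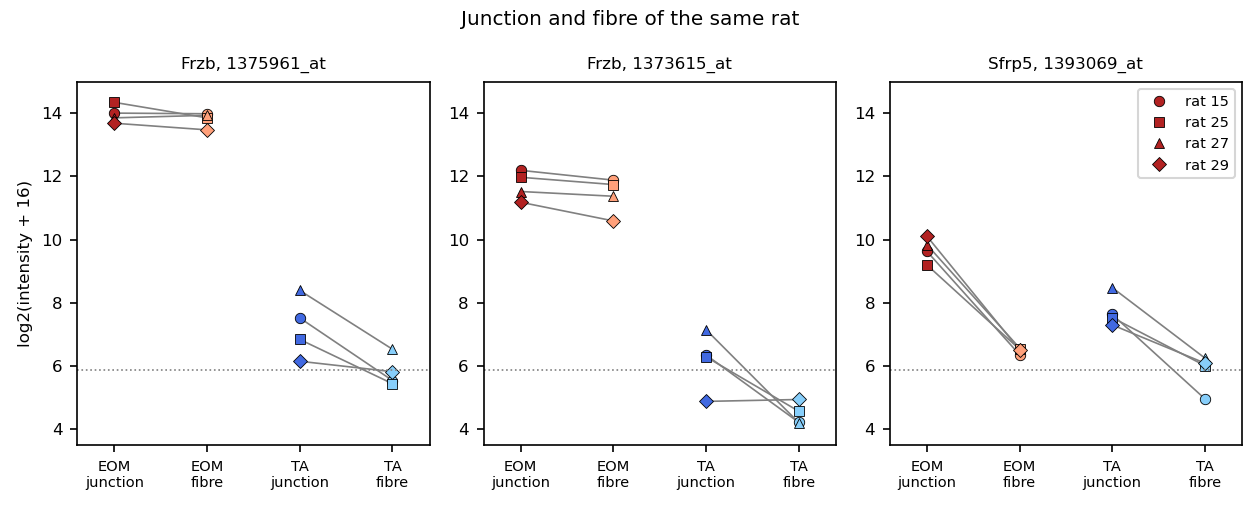
Levels of both Frzb probe sets and of Sfrp5 as log2(intensity + 16), with grey lines that join junction and fibre of the same rat within a muscle and the array median dotted. The Frzb lines are nearly flat in EOM and slope in TA in all rats but rat 29, and the Sfrp5 lines slope in every rat of both muscles.

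Markers of other cell types moved with region in the same samples, in both directions. The counts are of genes past the limma threshold. Of 14 tested fibroblast genes, 8 were higher and 0 lower at the TA junction, and 4 were higher and 1 lower at the EOM junction. Their summed intensity was 19375 to 35065 in EOM_synapse, 9038 to 28468 in EOM_fiber, 11435 to 22853 in TA_synapse and 3033 to 9183 in TA_fiber. Between the fibres, 11 of the 14 were higher in EOM and 0 lower. Of 9 tested Schwann cell genes, 6 were higher and 0 lower at the junction in each muscle, with sums of 6987 to 11839 in EOM_synapse, 1756 to 2722 in EOM_fiber, 3458 to 5548 in TA_synapse and 535 to 806 in TA_fiber. Of 8 tendon and cartilage genes, 1 was higher and 0 lower at the TA junction, and 1 was higher and 1 lower at the EOM junction. In EOM_fiber against TA_fiber 1 was higher and 0 lower, and in EOM_synapse against TA_synapse 0 were higher and 1 lower. Over all genes 10.2% were called at the TA junction, 10.1% at the EOM junction, 15.6% between the fibres and 16.4% between the junctions. Of 11 endothelial genes, 1 was higher and 5 lower at the EOM junction, and 1 higher and 3 lower at the TA junction. Of 9 smooth muscle and pericyte genes, 1 was higher and 3 lower in EOM, and 1 higher and 2 lower in TA. Between the fibres, 4 of 8 macrophage genes and 3 of 5 satellite cell genes were higher in EOM, and 0 were lower. No gene of these lists was at 0 on the arrays, and their part in the Frzb differences was not tested.

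Sfrp1 was close to the array median in every group, with 6 of 16 arrays above it. Its intensity was 67.0, 87.1, 36.5 and 18.9 in EOM_synapse of rats 15, 25, 27 and 29, against 59.9, 17.2, 2.17 and 35.1 in EOM_fiber. In TA_synapse it was 24.3, 56.8, 6.81 and 45.2, against 32.7, 33.3, 19.6 and 10.3 in TA_fiber. The ranges overlapped in both muscles, and no group was set apart. At the EOM junction Sfrp1 differed by 0.77 ± 0.37 (SE, 95% interval -0.02 to 1.56, limma adjusted p = 0.210), positive in 3 of 4 rats. At the TA junction it differed by 0.23 (95% interval -0.55 to 1.02, adjusted p = 0.764), and rats were evenly divided in sign. Its other probe sets, 1382878_at and 1383266_at, were above the array median on 1 array each and differed at the TA junction by -1.12 and 0.70, in opposite directions.

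Sfrp2 also had 6 arrays above the median. Its intensity was 40.0, 46.3, 5.90 and 41.1 in EOM_synapse of rats 15, 25, 27 and 29, against 48.6, 69.5, 59.7 and 50.5 in EOM_fiber. Its TA_synapse values were 43.2, 18.5, 64.4 and 25.6, against 16.9, 13.2, 34.6 and 27.2 in TA_fiber. Rat 27 alone was low in EOM_synapse, and on the normalized scale the ranges overlapped in both muscles. The junction difference was -0.56 (95% interval -1.33 to 0.20, limma adjusted p = 0.352) in EOM and 0.34 (95% interval -0.42 to 1.10, adjusted p = 0.630) in TA. The other probe set, 1396614_at, lay above the median on no array.

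Sfrp4 was above the array median on 14 arrays. Its intensity was 42.7 to 66.3 in EOM_synapse, 49.6 to 97.9 in EOM_fiber, 25.7 to 61.3 in TA_synapse and 31.0 to 82.2 in TA_fiber. All 4 ranges overlapped. The junction difference was -0.40 (95% interval -0.94 to 0.14, limma adjusted p = 0.355) in EOM and -0.15 (95% interval -0.70 to 0.39, adjusted p = 0.780) in TA. The dependence on muscle was not called for Sfrp1, Sfrp2 or Sfrp4 either (0.54, -0.90 and -0.25, adjusted p = 0.781, 0.563 and 0.866). A missed threshold at these intervals does not show that the groups were alike.

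Sfrp5, a closer relative of Sfrp1 that is not among the 4 genes, was the family gene with a junction difference in both muscles. Its intensity was 763, 568, 910 and 1042 in EOM_synapse of rats 15, 25, 27 and 29, against 82.1, 77.9, 80.7 and 77.7 in EOM_fiber. Its TA_synapse arrays gave 186, 165, 320 and 143, against 14.5, 57.0, 52.2 and 41.3 in TA_fiber. Every junction array was above every fibre array of the same muscle. The difference was 3.20 ± 0.27 (SE, limma adjusted p = 6.14e-06) in EOM and 1.91 ± 0.27 (adjusted p = 0.000413) in TA, positive in 4 of 4 rats in each. At the junction Sfrp5 was higher in EOM by 1.96 (adjusted p = 0.000268), and in fibre it differed by 0.67 (adjusted p = 0.114). The EOM junction difference exceeded that in TA by 1.29 ± 0.38 (adjusted p = 0.162). The Schwann cell sums given above moved the same way between junction and fibre, and their part in this was not tested.

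**Figure D3:**
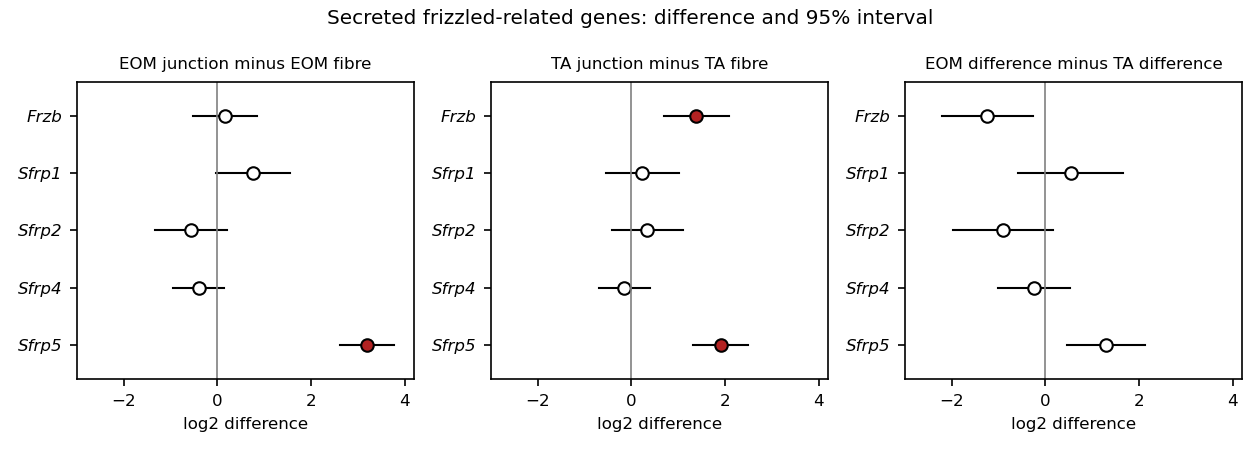
Log2 difference of junction over fibre in EOM and in TA, and the EOM difference minus the TA difference, for Frzb, Sfrp1, Sfrp2, Sfrp4 and Sfrp5, with 95% intervals from limma (16 arrays). Filled points have an adjusted p under 0.05, which holds for Frzb in TA (1.39) and for Sfrp5 in EOM (3.20) and TA (1.91).

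The other genes of the Wnt pathway were taken from lists of 104 genes, of which 83 were on the array and 59 were tested. Limma called 8 of the 59 (6 higher, 2 lower, 13.6%, and 5 in the fit without the rat block) at the EOM junction and 11 (8 higher, 3 lower, 18.6%) at the TA junction. It called 9 (5 higher, 4 lower, 15.3%) between EOM_fiber and TA_fiber and 10 (7 higher, 3 lower, 16.9%) between EOM_synapse and TA_synapse. Over all genes the shares were 10.1%, 10.2%, 15.6% and 16.4% in the same order, and the muscle shares are near theirs. The median differences were 0.08, 0.16, 0.12 and 0.17, against -0.04, -0.01, 0.03 and 0.01 over all genes. For the difference of the junction differences limma called 0 of the 59, with 10 at an unadjusted p under 0.05. Of the 38 calls, 24 kept their side of the threshold when each single array was left out, and 16 also when each rat was left out.

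Among the ligands, 6 were tested. Wnt9a was lower in EOM, at 99.1, 97.5, 138 and 144 in EOM_fiber of rats 15, 25, 27 and 29, against 535, 447, 416 and 541 in TA_fiber. All 4 EOM_fiber arrays were below all TA_fiber arrays, and the difference was -1.98 ± 0.19 (SE, limma adjusted p = 2.44e-05). At the junction it was -1.46 (adjusted p = 0.000205). Wnt16 was higher in EOM by 1.88 (adjusted p = 0.00236) in fibre and 1.50 (adjusted p = 0.00857) at the junction, with rat 27 (4.17) below the other TA_fiber arrays (6.16 to 6.49). Wnt4, a ligand known from kidney and muscle development, was lower in TA_synapse than in TA_fiber by -1.71 (adjusted p = 0.00857) and higher in EOM_synapse than in TA_synapse by 1.68 (adjusted p = 0.00642). The Wnt4 calls were lost without rat 27 in TA (adjusted p = 0.0582) and without rat 29 between the junctions (adjusted p = 0.0559), and the Wnt16 junction call without rat 15 (adjusted p = 0.0624). Over all alternatives of the processing, limma adjusted p reached 0.0736 for Wnt4 in TA and 0.0843 for Wnt16 between the junctions. At the EOM junction 0 of the 6 ligands passed, with 1 at an unadjusted p under 0.05.

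Among 10 tested receptors, 2 frizzled genes were higher at the junction in each muscle, where 10.1% of all genes passed in EOM and 10.2% in TA. Fzd1 had an intensity of 207, 283, 231 and 318 in EOM_synapse of rats 15, 25, 27 and 29, against 89.5, 58.5, 63.9 and 88.7 in EOM_fiber. Its TA_synapse arrays gave 231, 226, 288 and 266, against 27.0, 56.1, 71.1 and 37.7 in TA_fiber. Junction and fibre did not overlap in either muscle, and the differences were 1.57 ± 0.22 (SE, limma adjusted p = 0.000584) in EOM and 2.05 ± 0.22 (adjusted p = 3.77e-05) in TA. Fzd2 was higher at the TA junction by 1.91 (adjusted p = 0.00201) and at the EOM junction by 1.18 (adjusted p = 0.0388, lost without 8 single arrays). In TA_fiber rat 29 (6.42) lay apart from the other rats (4.16 to 4.52). Ryk, a Wnt receptor related to tyrosine kinases, was lower in EOM by -0.87 (adjusted p = 0.00901) in fibre and by -0.95 (adjusted p = 0.00488) at the junction. Its fibre call was lost without rat 25 or rat 29 (adjusted p up to 0.0583). Over all alternatives of the processing the adjusted p of that call reached 0.0801, and the Ryk junction call was lost in 1 (adjusted p = 0.0548).

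Of 8 tested secreted modulators other than the 4 genes, Sfrp5 was the one called at the junction in each muscle. Ndp, which encodes norrin, a ligand of Fzd4 outside the Wnt family, was higher in EOM_fiber than in TA_fiber by 2.01 (limma adjusted p = 0.00212), with rat 15 (6.41) apart from the other TA_fiber arrays (4.18 to 4.51). Sostdc1, an antagonist of Wnt and BMP ligands, was higher in EOM_synapse than in TA_synapse by 1.16 (adjusted p = 0.0492, lost without 12 single arrays). Of 4 tested membrane antagonists and export genes, Wls, which carries Wnt ligands to the cell surface, was higher in EOM_fiber by 1.11 (adjusted p = 0.0395, lost without 9 single arrays). Znrf3, a ubiquitin ligase that removes frizzled receptors, was higher in EOM_synapse than in TA_synapse by 1.52 (adjusted p = 0.00939, and 0.0656 without rat 29).

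Among 9 tested target genes, 4 passed at the junction in each muscle, in both directions, a share of 44.4% beside 10.1% of all genes in EOM and 10.2% in TA. Ccnd1, which encodes cyclin D1, was higher by 2.41 (limma adjusted p = 0.00782) in EOM and 2.51 (adjusted p = 0.00533) in TA, where rat 25 was the lowest array of both groups (8.43 and 4.43). With another probe set the EOM difference of Ccnd1 was 0.84 (adjusted p = 0.218), and its call also ended with a pseudocount of 1. Cd44, a hyaluronan receptor, was higher by 1.29 (adjusted p = 0.00156) in EOM and 0.85 (adjusted p = 0.0194, lost without 5 single arrays) in TA. Jun, a subunit of the AP-1 factor, was lower by -0.84 (adjusted p = 0.00889) in EOM and -1.02 (adjusted p = 0.00206) in TA. With another probe set neither Jun call held (-0.59 and -0.66, adjusted p = 0.312 and 0.266), and the EOM call was also lost without rat 25 or rat 29, without the rat block and with arrays centred on a common median. Nkd1, a feedback inhibitor, was lower at the EOM junction by -1.48 (3 of 4 rats, call lost without 7 single arrays). Bambi, a decoy receptor for TGF-beta ligands, was higher at the TA junction (95% interval 0.37 to 1.64, call lost without 10 single arrays). Nkd1 was above the array median on 5 arrays, among them EOM_fiber of rats 15, 27 and 29 (6.88, 6.28 and 6.05). Bambi was above it on 4, among them TA_synapse of rats 15 and 27 (6.23 and 6.35). Each passed the filter only with the group in which it was high, so these calls are a description. They are counted among the 4 calls of EOM and of TA. Axin2, the feedback target most often used to read the beta-catenin pathway, was looked up after its values were seen. It differed by 0.01 (95% interval -0.78 to 0.80) at the EOM junction and by -0.64 (95% interval -1.43 to 0.15) at the TA junction, with adjusted p = 0.992 and 0.329. Lef1, Nkd2 and Ccn4, also looked up late, had no call at either junction. Lef1 was higher in 4 of 4 rats in each muscle, by 0.73 in EOM and 1.06 in TA (limma adjusted p = 0.176 and 0.0525). Nkd2 differed by 0.53 and 0.91 (adjusted p = 0.404 and 0.144). Ccn4 means were lower at the junction, 4.99 against 5.73 in EOM and 5.41 against 5.66 in TA. Between EOM_synapse and TA_synapse 0 of the 9 targets passed in limma, with 2 at an unadjusted p under 0.05.

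**Figure D4:**
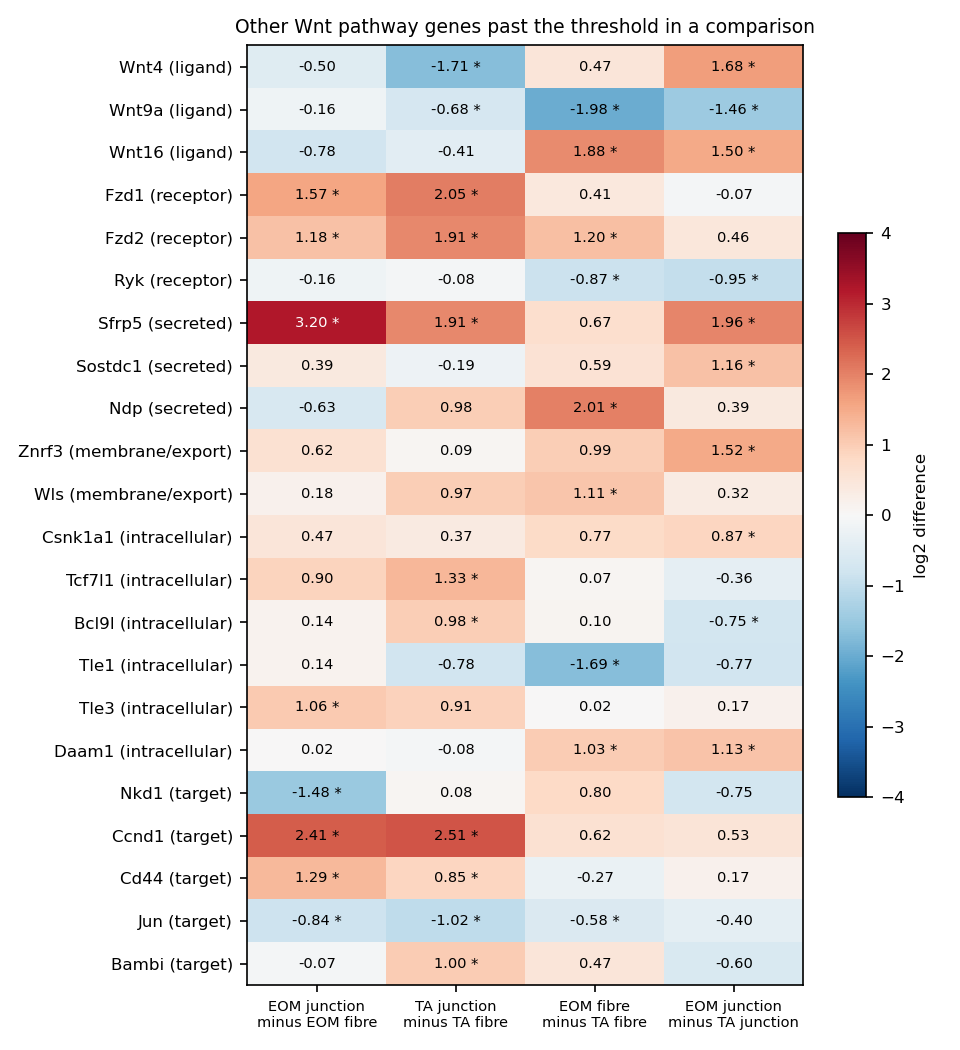
Log2 differences (colour and printed value) of the 22 other Wnt pathway genes that passed limma's threshold in at least 1 of 4 comparisons, by role, with an asterisk at each of the 38 calls. Fzd1, Fzd2, Sfrp5, Ccnd1 and Cd44 are higher at the junction in both muscles, and Wnt9a and Ryk are lower in EOM than in TA in both regions.

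Of 22 tested intracellular genes, 1 was called at the EOM junction, 2 at the TA junction, 2 between the fibres and 3 between the junctions of the muscles. These shares of 4.55%, 9.09%, 9.09% and 13.6% lie below the 10.1%, 10.2%, 15.6% and 16.4% of all genes. Tle1, a co-repressor of TCF factors, was lower in EOM_fiber than in TA_fiber by -1.69 (limma adjusted p = 0.00886, lost without rat 15, 27 or 29, with adjusted p up to 0.0698). Daam1, a formin downstream of Dishevelled, was higher in EOM by 1.03 in fibre and 1.13 at the junction (adjusted p = 0.00733 and 0.00382), but neither call held with its 2 other probe sets, of which 1397191_at gave -0.35 and -0.02. The fibre call was also lost without rat 15 or rat 25 (adjusted p up to 0.0712). Tle3 was higher at the EOM junction (1.06, lost without 5 single arrays). At the TA junction Tcf7l1 (1.33) and Bcl9l (0.98) were higher, and these calls were lost without 6 and 3 single arrays. Tcf7l1 lost its call in 13 of 31 alternatives of the processing, with a difference as low as 0.45 and a limma adjusted p up to 0.416. In EOM_synapse against TA_synapse Csnk1a1 was higher (0.87) and Bcl9l lower (-0.75), lost without 6 and 10 single arrays. Over all 32 alternatives of the processing, Csnk1a1 lost its call in 13. Its difference fell as low as 0.09, and its adjusted p in limma rose as high as 0.864. Calls not given so far were those of Wnt9a at the TA junction (-0.68, lost without 11 single arrays) and, in EOM_fiber against TA_fiber, Fzd2 (1.20, lost without 6) and Jun (-0.58, lost without 12). In all, 14 of the 38 calls were lost without at least 1 single array, with adjusted p of at most 0.174 and an unchanged sign.

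Over the 16 arrays, the genes whose level ran most like that of Frzb were Atp1b1 (Pearson r 0.986), Col24a1 (0.972), Tmem47 (0.971), Lrig1 (0.970) and Guca1a (0.968). The arrays fall into the EOM and the TA cluster, so these values rest on the step between the muscles. Within the 8 EOM arrays r was 0.31, -0.06, -0.15, 0.24 and -0.29 for the 5 genes in that order, and within the 8 TA arrays 0.80, 0.56, 0.82, 0.61 and 0.52. The highest values for the other genes were 0.784 for Sfrp1 (with Rpl39), 0.795 for Sfrp2 (with Rgs6) and 0.832 for Sfrp4 (with Ipo11). The arrays share rats, normalization and labelling, and these values are a description with no test.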

How the data were processed

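The authors deposited linear intensity values per Affymetrix probe set with an equal 2% trimmed mean on every array, as found from the values. The probe-summarising software was not given in the sources used here. Per the labels' protocols, RNA of laser-captured regions went through 2 cycles of amplification with biotin labelling. Values were taken as log2(intensity + 16), and since the arrays' log2 medians differed by 0.564 (limit 0.5), they were quantile normalized without the 57 control probe sets. Of the rest, 20832 probe sets had 1 gene (symbols updated to assembly GRCr8), and 436 with several genes were not used. A probe set was kept if above the array median in at least 4 arrays, and each gene took its probe set of highest mean. Group means with the rat as a fixed block were fitted with limma 3.58.1 in R 4.3.3 (residual degrees of freedom 9, prior 4.58), with Benjamini-Hochberg adjustment over 10416 genes in each of 5 contrasts that share arrays.

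The number in each title was taken as the rat. Deviations from the group means correlated at a mean of 0.112 over 24 same-rat pairs (-0.0666 to 0.245, 16 over 0.1). Between arrays of other rats and other groups the mean was -0.0374. Each array's correlations with the other groups were averaged by rat number, and for 14 of 16 arrays the same number gave the highest mean. The members and gene lists were chosen with earlier results of these data known. Named genes are the 4 members, the 5 genes most like each in Pearson r, and up to 4 genes past the threshold per Wnt or BMP list and contrast. Fits were tested on simulated data. Alternatives changed the block, scaling, pseudocount (1, 64), filter, probe set and arrays.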

Additional observations from a re-analysis of the deposited data

Results flagged for a closer look

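In 11 of 148 groups of 4 arrays examined for the named genes, 1 array stood far from the other 3 on the log2 scale. About 1 in 20 such groups would do so by chance. Sfrp2 in EOM_synapse was 4.49 in rat 27, against 5.79 to 5.91 in the other rats. Rat 25 was apart for Ccnd1 in TA_synapse (8.43, others 9.11 to 9.19) and in TA_fiber (4.43, others 7.09 to 7.21), for Nkd1 in EOM_synapse (4.76, others 4.34 to 4.37), for Bmper in EOM_synapse (8.45, others 7.95 to 8.01) and for Sostdc1 in TA_fiber (7.08, others 5.14 to 5.47). Rat 15 was apart for Ndp in TA_fiber (6.41, others 4.18 to 4.51), for Tcf7l1 in EOM_fiber (4.74, others 6.38 to 6.61) and for Bmper in EOM_fiber (6.35, others 7.33 to 7.49). Fzd2 in TA_fiber was 6.42 in rat 29, against 4.16 to 4.52, and Wnt16 in TA_fiber was 4.17 in rat 27, against 6.16 to 6.49.

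Among the Wnt and BMP lists, Fst was the 1 gene whose junction difference depended on the muscle. The EOM junction difference exceeded that in TA by 2.00 ± 0.40 (SE, limma adjusted p = 0.0326), in 4 of 4 rats. This call was lost without 10 of the 16 single arrays, with adjusted p from 0.0534 to 0.0877, and without each of the 4 rats (adjusted p up to 0.192).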

How the results depend on the processing

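The Frzb difference between the muscles kept its direction in every alternative, at 6.91 (fibre) and 5.55 (junction) with the probe set 1373615_at and 7.08 (fibre) with a pseudocount of 64. The TA junction difference of Frzb was positive throughout (1.08 to 1.75 when arrays or rats were left out), but lost its call with the 8 TA arrays alone (1.39, adjusted p = 0.0563), without either TA array of rat 15, and without all arrays of rat 15 or of rat 25 (adjusted p = 0.121 and 0.0566). The EOM junction difference was -0.29 as deposited, -0.17 with arrays centred on a common median, and -0.05 to 0.42 when arrays or rats were left out. Centring moved the median of all genes by 0.13 in that contrast, with 79.4% of calls higher against 55.5%, and by 0.11 in the difference of junction differences. Using values as deposited moved the median between the fibres by 0.12. Leave-outs gave -0.043 to 0.58 for Sfrp1 and -0.35 to 0.20 for Sfrp4 at the TA junction, and -0.12 to 1.24 and -0.58 to 0.054 for their difference of differences. The filter of 8 arrays gave no value for Sfrp1 or Sfrp2.

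With no replicate block, with the replicate block as random, and with a pseudocount of 1, Wnt pathway calls at the EOM junction were 5 each. The block changed no call of the 4 genes. With the 8 arrays of a contrast alone they were 5 at the TA junction and 4 between the fibres, and with a pseudocount of 64 the difference of differences had 1. Leave-outs gave 5 to 9 (EOM junction), 6 to 12 (TA junction), 4 to 12 (fibres), 6 to 13 (junctions of the muscles) and 0 to 1. Calls over all genes were 689, 1139 and 56 with centred arrays (EOM junction, junctions of the muscles, difference of differences), 606 and 582 with 8 arrays (TA junction, fibres), and 46 and 218 with pseudocounts of 1 and 64 in the difference of differences. Leave-outs gave 475 to 1121, 586 to 1202, 924 to 1710, 903 to 1932 and 25 to 99 in the order above. The other probe set of Daam1 gave -0.35 and -0.025. The cause of these changes was not tested, except that fewer arrays give fewer residual degrees of freedom. Intensities near the array median limit what can be seen of Sfrp1, Sfrp2 and Sfrp4.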

Other observations

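Secreted antagonists of bone morphogenetic proteins, another family of ligands held by secreted binding proteins, were also measured. Of 8 tested genes, 4 were called higher at the EOM junction, 3 at the TA junction, 3 in EOM_fiber than in TA_fiber and 3 in EOM_synapse than in TA_synapse. In these, 0 were called lower, and 10.1%, 10.2%, 15.6% and 16.4% of all genes were called. Fstl3 passed the filter on 4 arrays, EOM_synapse of rats 15, 27 and 29 (6.26, 5.89 and 6.23) and TA_fiber of rat 15 (6.07). Its calls at the EOM junction and between the junctions of the muscles are thus a description. Without single arrays the calls of Bmper (6 arrays) and Fstl3 (3 arrays) at the EOM junction, of Fstl1 between the fibres (6 arrays) and of Fstl3 between the junctions of the muscles (6 arrays) were lost. The Fstl1 call at the TA junction was lost without rat 27 or rat 29. Nog, which encodes noggin, had an intensity of 1297, 1083, 604 and 746 in EOM_synapse of rats 15, 25, 27 and 29, against 7.07 to 138 in EOM_fiber. In TA_synapse it was 1801, 1892, 1411 and 1563, against 58.0, 71.3, 40.8 and 35.4 in TA_fiber. Every junction array was above every fibre array, with differences of 3.85 ± 0.34 (SE, limma adjusted p = 8.55e-06) in EOM and 4.57 ± 0.34 (adjusted p = 9.45e-07) in TA.

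Fst, which encodes follistatin, had an intensity of 1427, 1660, 2315 and 1444 in EOM_synapse, against 258, 180, 490 and 557 in EOM_fiber. In TA_synapse it was 36.2, 104, 175 and 108, against 41.8, 85.6, 85.7 and 58.6 in TA_fiber. It was higher at the EOM junction by 2.39 (limma adjusted p = 0.000146) and differed by 0.39 (adjusted p = 0.457) at the TA junction. Twsg1, a modulator of BMP binding, was higher in EOM by 1.03 (adjusted p = 0.000604) in fibre and 0.94 (adjusted p = 0.00107) at the junction. With its other probe set these were 0.72 and 0.29 (adjusted p = 0.0809 and 0.508).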
